A study of Rattus norvegicus with 9 samples.

Results

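Matrix metalloproteinases and their tissue inhibitors were followed across cell types in the healing rat tibia. The set was chosen by gene symbol and held 9 of the 41801 genes listed in the deposited tables: the metalloproteinase genes Mmp2, Mmp3, Mmp9, Mmp13, Mmp14 and Mmp19 and the inhibitor genes Timp1, Timp2 and Timp3. All 9 were found and all had UMIs (unique molecular identifiers, each standing for 1 captured RNA molecule). Sprague-Dawley rats aged 6 to 8 weeks carried a circular osteotomy of the proximal tibia (TO) and, in every animal, a full-thickness skin wound on the foot of the same side. The TOE rats also had radial extracorporeal shock waves applied to the osteotomy on days 2 and 4, and osteotomy tissue was taken 4 or 24 h after a session. Single-cell 3′ RNA libraries from 8 conditions were analysed: TO_2d_0h (before the day 2 session), TO_2d_4h, TO_4d_4h, TO_4d_24h, TOE_2d_4h, TOE_2d_24h, TOE_4d_4h and TOE_4d_24h, while TO_2d_24h was not analysed here. The design names 9 rats for 9 samples, so each condition was 1 library, and within a pair an effect of shock waves and a difference between samples cannot be told apart. TO and TOE were compared in the 3 pairs matched for day and hour, with exact 95% intervals that cover counting error only, and were then tested over the 3 pairs together.

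Matrix metalloproteinases are zinc enzymes that cut collagen and other matrix proteins, and most are secreted as inactive precursors. Tissue inhibitors of metalloproteinases (TIMPs) bind the active enzymes and block them, so the balance of both sets how fast matrix is removed. In bone, collagenase 3 is a product of osteoblasts and hypertrophic chondrocytes, gelatinase B of osteoclasts and neutrophils, and loss of the membrane-type enzyme MMP14 impairs bone growth.

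The files held 116711 barcodes, of which 110488 remained as cells after filters, 11924 to 16227 per library, with a median of 4477 to 5626 UMIs per cell. Barcodes found in more than 1 library numbered 1601, and each pair of libraries shared 40 to 110. Most cells were of marrow type, with 57.4% B-cell-like, whereas mesenchymal-like cells were 1.17% (1290 cells, 60 to 498 per library, 11 of 12 markers raised). The libraries did not mix evenly: a B-cell-like cluster held 3566 to 4299 cells in TO_2d_0h, TO_4d_24h and TOE_2d_24h and 34 to 78 in each of the other 5, so the libraries of the 4d 24h pair lay on different sides of this split while those of both 4 h pairs did not. TOE_4d_24h further stood apart by its 25 macrophage-like cells, against 114 to 575 elsewhere. The B-cell-like level of each gene was taken as the level of free RNA, since these cells should have little or none of the 9 transcripts, and the part of this split and of free RNA in the results was not tested.

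Promoter sequences are shown for Mmp13, whose TOE over TO ratio in mesenchymal-like cells was the farthest from 1 of the 9 members, for Mmp3, which lies in the same run of metalloproteinase genes, and for Timp1, whose level differed in several cell classes. Each is the 200 bases before the RefSeq gene start on assembly GRCr8, written 5′ to 3′ on the gene's strand, and capitals mark matches to 3 motifs searched on both strands. The AP-1 motif was TGANTCA, where N is any base. For Runx the letters searched were AACCACA. The TATA box was read as TATAAA. They lie at chr8:12782629-12782828 (plus strand), chr8:12925081-12925280 (plus strand) and chrX:3771123-3771322 (minus strand).
Mmp13: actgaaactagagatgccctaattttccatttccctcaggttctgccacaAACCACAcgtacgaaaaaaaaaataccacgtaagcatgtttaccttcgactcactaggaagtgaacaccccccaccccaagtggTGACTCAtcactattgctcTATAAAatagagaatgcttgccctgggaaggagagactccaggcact
Mmp3: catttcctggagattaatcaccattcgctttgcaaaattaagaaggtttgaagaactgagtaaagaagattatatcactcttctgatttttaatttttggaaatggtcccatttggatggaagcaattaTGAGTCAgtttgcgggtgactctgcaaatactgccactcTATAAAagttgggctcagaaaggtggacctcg
Timp1: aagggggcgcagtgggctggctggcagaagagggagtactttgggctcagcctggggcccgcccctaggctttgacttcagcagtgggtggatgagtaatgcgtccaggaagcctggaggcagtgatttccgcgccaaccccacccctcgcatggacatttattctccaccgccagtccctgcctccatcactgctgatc
The Mmp13 window held the Runx letters 150 bases, the AP-1 letters 66 bases and the TATA letters 47 bases before the start, and the Mmp3 window held AP-1 and TATA letters at 71 and 32 bases. No match overlapped another, and the Timp1 window held no exact match to any of these 3. Near matches were not searched. Among 33469 rat promoters, 6.34% held the AP-1 letters, 4.59% the Runx letters and 12.9% the TATA letters within 250 bases, so these matches are a description and not evidence of binding.

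To find where the genes were used, UMIs were summed per cell class and library and given as counts per 1000000 UMIs of the class (CPM). Mmp13, encoding collagenase 3, was a mesenchymal-like transcript: this class held 91.1% of its 11223 UMIs at a median of 185 CPM over libraries (37.4 to 1219), whereas B-cell-like cells had 0.0435 to 2.02 CPM. The gelatinase A gene Mmp2 followed the same class, with 89.8% of UMIs at 284 CPM (192 to 353), above the 12.7 to 37.1 CPM of endothelial-like cells, the next named class, in the 7 libraries with at least 20 such cells. Mmp3, encoding stromelysin 1, was scarce: 170 of its 202 UMIs lay in mesenchymal-like cells, at 0 to 10.9 CPM.

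The other metalloproteinase genes were spread more widely. Mmp14, the membrane-type enzyme that activates pro-MMP2, was at a median of 299 CPM (101 to 414) in mesenchymal-like, 141 CPM (89.0 to 209) in endothelial-like and 119 CPM (20.3 to 150) in macrophage-like cells. These ranges overlapped, so their order is not fixed by the libraries. Mmp19, an enzyme that cuts basement membrane proteins, also overlapped between mesenchymal-like (11.5 to 42.0 CPM) and macrophage-like cells (7.16 to 28.4 CPM). Mmp9, encoding gelatinase B, was a neutrophil transcript, with 82.0% of 49982 UMIs in neutrophil-like cells at 391 to 669 CPM, above the macrophage-like range of 4.86 to 308 CPM.

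The inhibitor genes differed in their main class. Timp1 was at 634 to 2289 CPM in mesenchymal-like cells, above the endothelial-like 54.8 to 536 CPM, the next named class. Timp2, which besides inhibiting takes part in MMP2 activation, was shared: mesenchymal-like cells (422 to 858 CPM) and macrophage-like cells (369 to 799 CPM) overlapped, and neutrophil-like cells (132 to 292 CPM) lay below both. Timp3, an inhibitor that stays bound to matrix, was at 231 to 588 CPM in endothelial-like cells over the same 7 libraries, above the mesenchymal-like 41.5 to 222 CPM, although the latter held 60.3% of its UMIs.

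**Figure D1:**
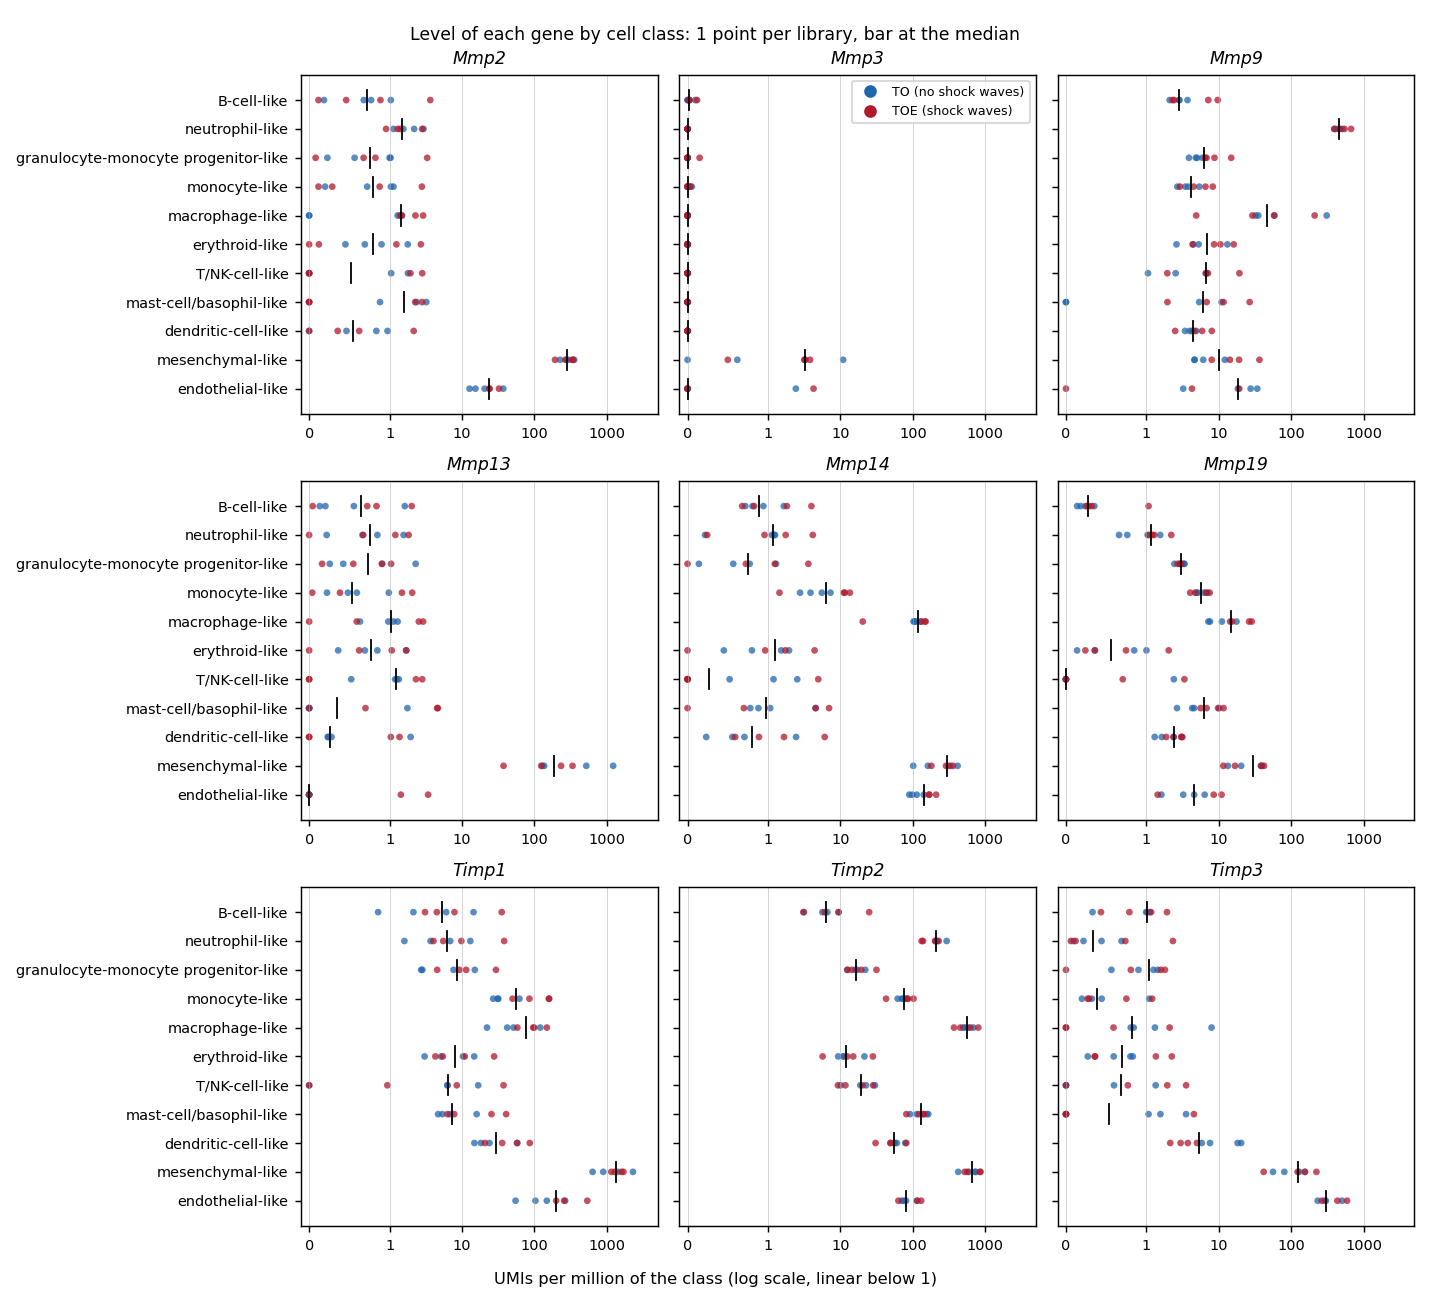
Level of each gene (CPM of the class, log scale that is linear below 1) by cell class for classes with at least 20 cells in a library, 1 point per library (TO blue, TOE red) and a bar at the median. Mmp2 and Mmp13 stood out in the mesenchymal-like class, Mmp9 in the neutrophil-like class and Timp3 in the endothelial-like and mesenchymal-like classes.

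The genomic neighbours of Mmp13 were led by several classes. In the RefSeq annotation it opens a run of 10 metalloproteinase genes, of which Mmp12, the macrophage elastase gene, had 76.8% of its UMIs in macrophage-like cells and Mmp8, the neutrophil collagenase gene, 93.0% in neutrophil-like cells. Mmp27 likewise had 81.9% of UMIs in neutrophil-like cells. Mmp3, the fourth of the run, shared the mesenchymal-like class with Mmp13, as did 81.2% of the 16 UMIs of Mmp10, and Mmp1 and Mmp1b had 8 and 1 UMIs in all libraries.

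The mesenchymal-like class was then compared by library. Mmp13 was at 519, 1219, 136 and 128 CPM in TO_2d_0h, TO_2d_4h, TO_4d_4h and TO_4d_24h, and at 37.4, 124, 233 and 335 CPM in TOE_2d_4h, TOE_2d_24h, TOE_4d_4h and TOE_4d_24h. The TO libraries were high on day 2 and low on day 4, and the TOE_2d_4h library was the lowest of all. At 2d 4h, 47 UMIs in 60 TOE cells stood against 1804 UMIs in 62 TO cells, a TOE over TO ratio of 0.0307 (0.0225 to 0.0410), or 32.5-fold lower. In the class as a whole this direction did not carry to day 4: at 4d 4h the ratio was 1.72 (1.57 to 1.88), and at 4d 24h it was 2.62 (2.31 to 2.96). The latter was 1.22 without a sub-cluster led by Col2a1, of which TO_4d_24h had 0 cells. Within sub-clusters, given below, the day 4 ratios lay on both sides of 1.

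Few cells carried this signal. The tenth of mesenchymal-like cells with most Mmp13 UMIs held 73.2% to 97.5% of them in each library, and a single cell held 24.8% of them in TO_2d_4h and 61.7% (29 of 47 UMIs) in TOE_2d_4h. Without the cell with most UMIs in each library, the 2d 4h ratio was 0.0155, and over the 15 alternatives run it stayed between 0.0155 and 0.0424. Mmp13 was found in 22 of 62 cells (35.5%) in TO_2d_4h and 9 of 60 (15.0%) in TOE_2d_4h.

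Mmp2 was even across the pairs. It was at 226, 276, 353 and 292 CPM in the TO libraries in the order above and at 267, 192, 341 and 330 CPM in the TOE libraries. The groups overlapped, and the ratios were 0.968 (0.836 to 1.12), 0.967 (0.907 to 1.03) and 1.13 (1.02 to 1.25) at 2d 4h, 4d 4h and 4d 24h.

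Mmp14 differed in direction between pairs. It was at 161, 332, 414 and 101 CPM in the TO libraries and at 180, 286, 357 and 312 CPM in the TOE libraries, with TOE inside the TO range. At 2d 4h the TOE over TO ratio was 0.543 (0.462 to 0.637), at 4d 4h it was 0.863 (0.811 to 0.917), and at 4d 24h it reached 3.10 (2.71 to 3.56). Without the sub-cluster led by Col2a1 the 4d 24h ratio was 1.29. Within the sub-clusters led by Bglap and by Cxcl12 it was 0.780 (0.585 to 1.03) and 1.46 (0.825 to 2.70).

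Mmp9, Mmp19 and Mmp3 were low in these cells. Mmp9 was at 4.59, 6.08, 12.1 and 4.63 CPM in the TO libraries and at 7.97, 36.3, 14.2 and 19 CPM in the TOE libraries. The highest 3 values were TOE libraries, but 1 cell held 43.7% of the UMIs in TOE_2d_24h and 1 cell 52.6% in TOE_4d_24h. At 4d 24h the ratio was 4.10 (2.20 to 8.02) from 15 against 38 UMIs, and 23 of the 38 lay in 2 cells of a sub-cluster led by granulocyte genes. Without that sub-cluster it was 2.66 (lower limit 1.09), and B-cell-like Mmp9 had a ratio of 2.61 in the same pair, at 3.69 and 9.63 CPM. Mmp19 stayed near a ratio of 1 at 0.826, 1.06 and 0.866, each interval including 1, and Mmp3 had enough UMIs only at 4d 4h, with 1.16 (0.585 to 2.29).

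Of the inhibitors, Timp1 was at 2289, 890, 634 and 1426 CPM in the TO libraries and at 1281, 1690, 1147 and 1590 CPM in the TOE libraries. TO_2d_4h and TO_4d_4h lay below every TOE library, but TO_2d_0h was the highest of all and TO_4d_24h lay inside the TOE range. In the matched pairs TOE was above TO at 2d 4h (1.44, 1.34 to 1.55) and 4d 4h (1.81, 1.74 to 1.88), although the 2d 4h ratio was 0.954 with a low-UMI collagen cluster counted in. The 4d 24h ratio of 1.12 (1.07 to 1.17) turned to 0.812 without the cell with most UMIs, which held 31.2% of the TOE_4d_24h UMIs. Timp2 was at 594, 716, 737 and 422 CPM in TO and 564, 838, 858 and 518 CPM in TOE. Its ratios of 0.788 (0.715 to 0.867), 1.16 (1.12 to 1.21) and 1.23 (1.13 to 1.33) were smaller than the spread among the TO libraries.

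Timp3 was at 153, 128, 55.9 and 80.0 CPM in TO and at 222, 122, 155 and 41.5 CPM in TOE. TOE held both the highest and the lowest library. At the 4 h pairs TOE was higher, with ratios of 1.74 (1.44 to 2.11) on day 2 and 2.78 (2.44 to 3.17) on day 4, whereas at 4d 24h it was lower (0.519, 0.40 to 0.667).

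**Figure D2:**
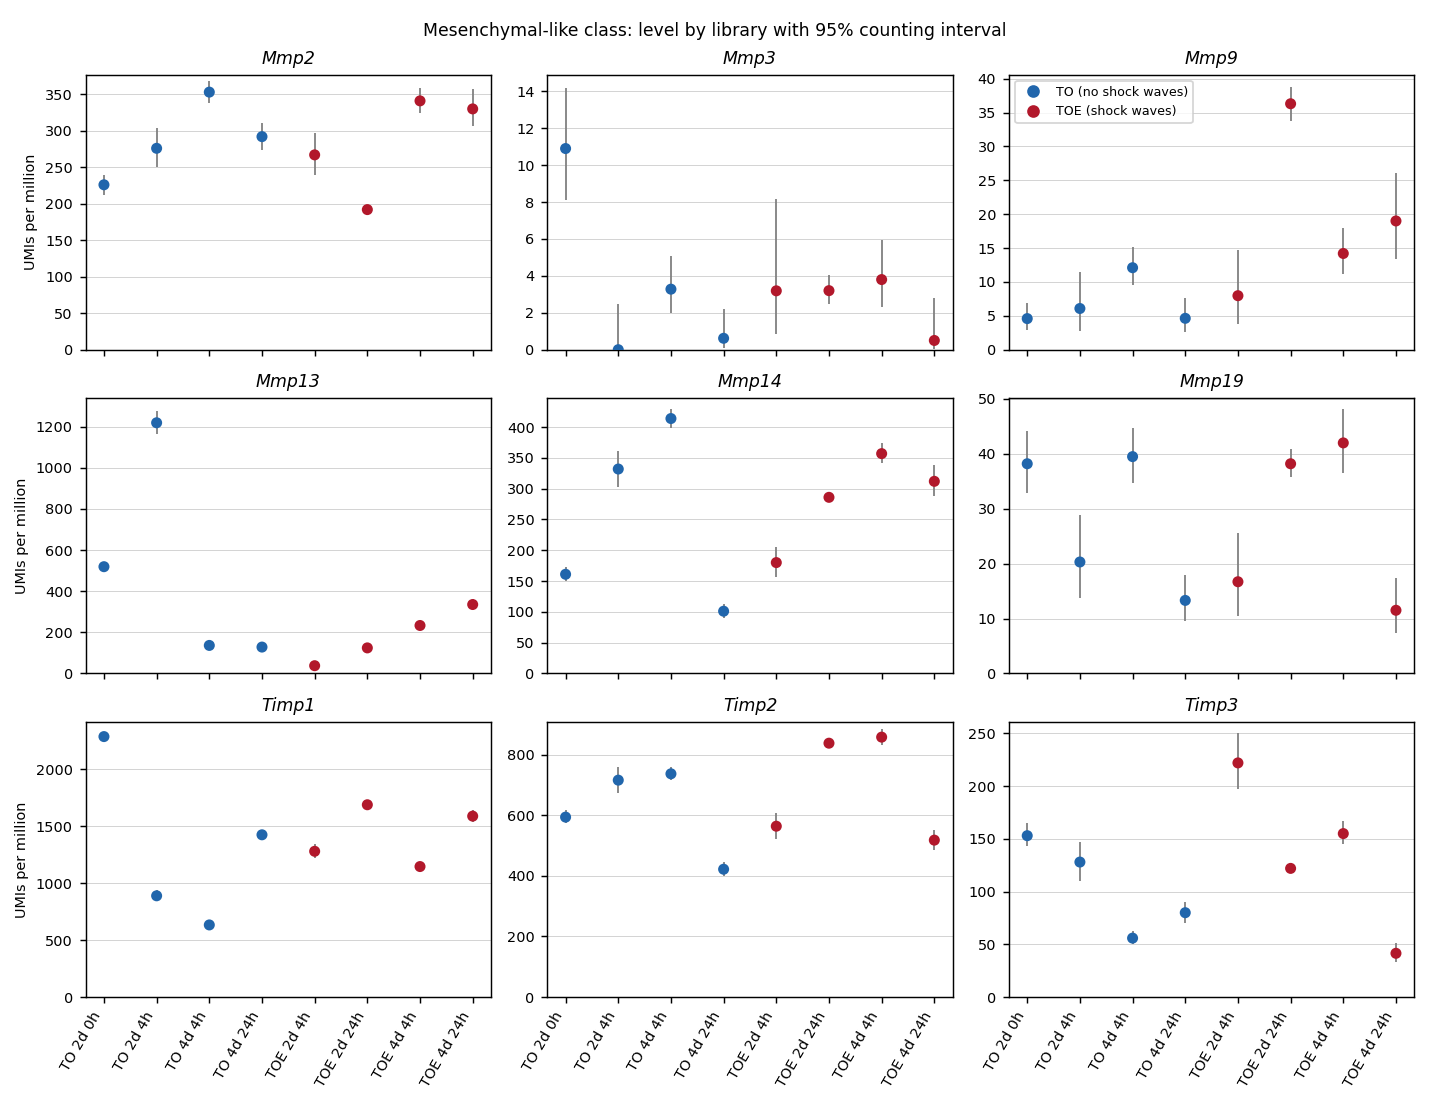
Level of each gene (CPM, linear axes from 0) in the mesenchymal-like class by library, with points for libraries and bars for the 95% counting interval. Mmp13 was at 1219 in TO_2d_4h and 37.4 in TOE_2d_4h, while Mmp2 stayed between 192 and 353 in all 8 libraries.

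Counting changes of at least 2-fold in either direction, with at least 20 UMIs over the pair, 1 of 7 members was lower and 0 were higher in TOE at 2d 4h (Mmp13), beside 5.76% lower and 4.10% higher of all genes tested in this class. At 4d 4h, 1 of 9 was higher (Timp3) and 0 lower, beside 4.93% and 6.09% of all genes. At 4d 24h, 3 of 8 were higher (Mmp9, Mmp13 and Mmp14) and 0 lower, beside 14.3% and 4.03%. Of these, Mmp9 had 15 and 38 UMIs and reached 20 only through TOE, so its place in the count is not read as a result. Without a sub-cluster led by Col2a1, 1 was higher at 4d 24h (Mmp9, with the same limit) and 1 lower (Timp3). The median log2 ratio of the members was -0.28, 0.22 and 0.24 at the 3 pairs, against -0.07, -0.01 and 0.28 over all genes. The 4d 24h value of 0.24 took in Mmp9, is therefore not read as a result, and the median without this gene was not taken. With scaling by the median ratio over genes, which removes the shift over all genes, the 4d 24h ratios were 2.06 for Mmp13, 2.44 for Mmp14 and 0.877 for Timp1. By that scaling 3 members were higher, Mmp9 among them with the same limit, and 1 lower.

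**Figure D3:**
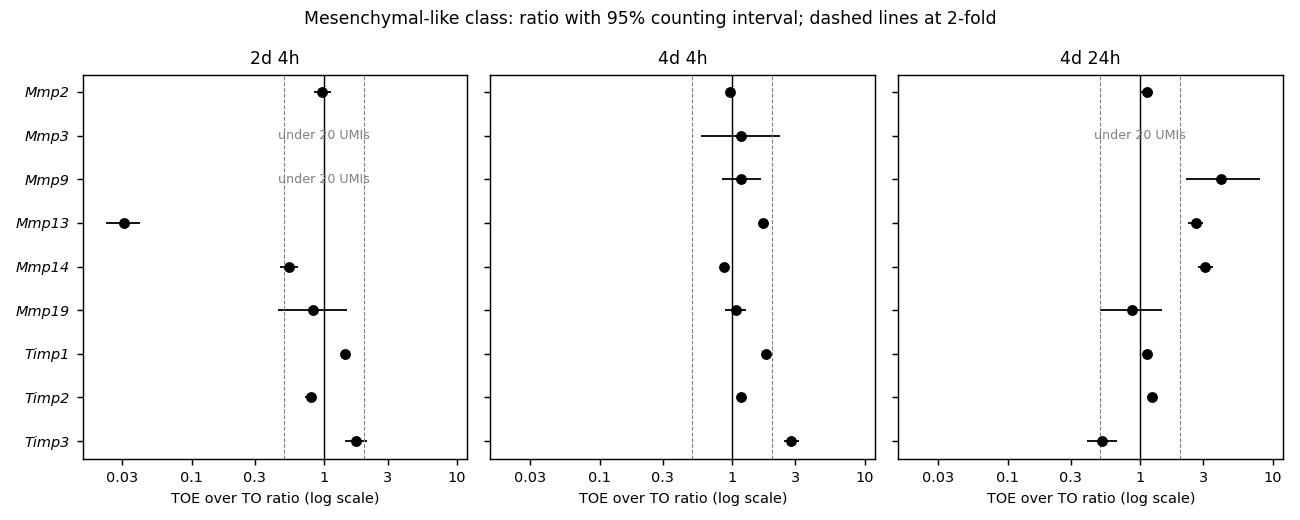
TOE over TO ratio of each gene in the mesenchymal-like class (log axis) at the 3 matched pairs, with bars for the 95% counting interval and dashed lines at 2-fold. Mmp13 at 0.0307 lay far left of the line at 2d 4h and right of it, at 2.62, at 4d 24h.

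The mesenchymal-like class was clustered again without metalloproteinase or TIMP genes among the variable genes, which gave 9 sub-clusters, and the members divided among them. Mmp13 was at 2866 CPM in 67 reticular-stromal-like cells led by Cxcl12, C6, Lepr and Mmp13 itself, which held 33.9% of its UMIs in the class, and at 229 CPM in 431 cells led by F13a1, Ndnf and Lmcd1, which held 44.2%. A sub-cluster of 310 cells led by Bglap, the osteocalcin gene, had 22.1 CPM of Mmp13, while 31 osteoblast-like cells led by Dmp1 and Phex, genes of osteocytes, had 224 CPM. The Bglap sub-cluster had 7 of 9 osteoblast markers raised but was left unnamed, since the plasma cell genes Igha and Jchain outnumbered osteoblast markers among its leading genes. Fibroblast-like cells led by Col14a1 and Dpt (197 cells) had 15.4 CPM. Mmp2 ran differently, from 381 CPM in these fibroblast-like and 300 CPM in the Bglap sub-cluster down to 55.6 CPM in the pericyte/smooth-muscle-like cells led by Rgs5.

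Timp3 was the reverse of Mmp2 between these 2 ends, at 473 CPM in the 92 pericyte/smooth-muscle-like cells and 31.6 CPM in the fibroblast-like cells. A sub-cluster of 105 cells led by Col2a1 and Comp, cartilage matrix genes, was high in both, with 501 CPM of Mmp2 and 188 CPM of Timp3, and had 1462 CPM of Timp2, 640 CPM of Mmp14 and 465 CPM of Mmp13. It had 4 of 9 fibroblast markers raised but was left unnamed, since its leading genes go against that name. Mmp9 was at 38.2 CPM in 41 cells led by granulocyte genes such as Camp and S100a8, and at 39.0 CPM in the F13a1 sub-cluster, where a single cell of TOE_2d_24h held 357 of the 817 UMIs of that library.

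**Figure D4:**
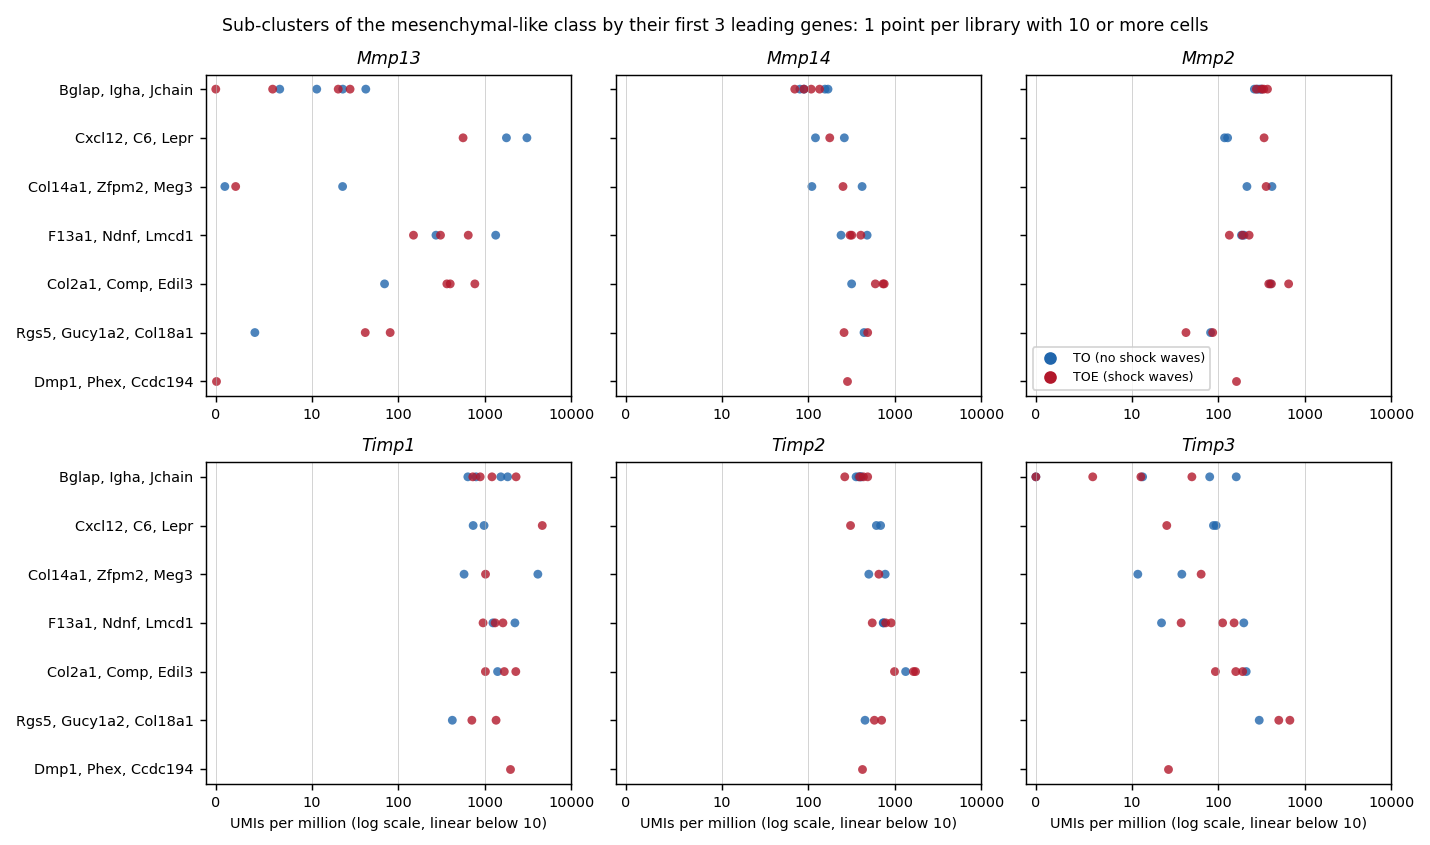
Level of 6 genes (CPM, log scale that is linear below 10) in sub-clusters of the mesenchymal-like class, 1 point per library with at least 10 cells (TO blue, TOE red). Mmp13 reached 3077 in the Cxcl12, C6, Lepr sub-cluster, which overlapped the F13a1 and Col2a1 sub-clusters, and Timp3 reached 672 in the Rgs5, Gucy1a2, Col18a1 sub-cluster.

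The makeup of the class also differed between libraries. Fibroblast-like cells, without the Col2a1 sub-cluster, were 70.9% of the class in TO_4d_4h and 16.8% in TOE_4d_4h, the Bglap sub-cluster was 79.6% in TO_4d_24h and 29.1% in TOE_4d_24h, and the F13a1 sub-cluster was 67.3% of TOE_2d_24h, which supplied 335 of its 431 cells. The Col2a1 sub-cluster was 32.9% of TOE_4d_24h and held 66.9% of its Mmp13 and 70.6% of its Mmp14 UMIs, while TO_4d_24h had 0 such cells. Without it the 4d 24h ratios were 1.22 (1.03 to 1.44) for Mmp13 and 1.29 (1.07 to 1.55) for Mmp14, both under 2-fold, 0.256 (0.168 to 0.376) for Timp3, then past 2-fold, and 0.763 (0.685 to 0.849) for Timp2.

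Within sub-clusters the pairs could be compared only where both libraries had at least 10 cells. Among fibroblast-like cells at 4d 4h, Timp3 was at 11.7 CPM in TO and 63.2 CPM in TOE (ratio 5.42, 3.69 to 7.98) and Timp1 at 577 and 1022 CPM (1.77, 1.64 to 1.91). Pericyte/smooth-muscle-like cells had the same directions, with Timp3 at 2.26 (1.88 to 2.73) and Timp1 at 1.68 (1.42 to 1.99), as did the Bglap sub-cluster for Timp1 at 1.53 (1.32 to 1.77). At 2d 4h the Bglap sub-cluster alone could be compared, with Timp1 at 1.14 (0.976 to 1.34).

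Mmp13 ratios at 4d 4h lay on both sides of 1 between sub-clusters, from few cells. Fibroblast-like cells had 2 UMIs in 2 of 31 TOE cells and 103 in 18 of 129 TO cells (ratio 0.0914, 0.0109 to 0.339). Pericyte/smooth-muscle-like cells had 30 UMIs in 2 of 16 TOE cells and 3 in 3 of 23 TO cells (19.8, 6.17 to 102). Each reached 20 UMIs only through the library in which it was higher. The Bglap sub-cluster was at 1.21 (0.489 to 3.42). Without the Cxcl12 sub-cluster, which held 542 of the 828 Mmp13 UMIs of TO_4d_4h in 4 cells, the 4d 4h ratio of the class was 4.36 (3.82 to 4.99).

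At 2d 4h the reticular-stromal-like cells, too few for that comparison, had 1232 Mmp13 UMIs in 9 TO cells and 33 UMIs in 7 TOE cells, and these were 68.3% and 70.2% of the class total. All 9 TO cells but 3 of the 7 TOE cells had a UMI of the gene. At 4d 24h Mmp13 was lower in this sub-cluster (562 against 1784 CPM, ratio 0.315, 0.254 to 0.389), with all 133 TOE UMIs in 1 cell, while its Timp1 was at 983 CPM in TO and 4633 CPM in TOE (4.71, 3.96 to 5.64). Most of these TOE Timp1 UMIs also lay in 1 cell. The class had 3181 Timp1 UMIs in TOE_4d_24h and 2189 without its top cell, and only this sub-cluster, with 1097, had enough to hold that cell. The Bglap sub-cluster at 4d 24h had 0 Mmp13 UMIs among 23 TOE cells, against 115 UMIs in 82 TO cells (a ratio of at most 0.0940 by its interval), and lower Timp3 (0.160, 0.0812 to 0.284) and Timp1 (0.577, 0.536 to 0.622).

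Timp1 in monocyte-like cells differed at both 4 h pairs. It was at 61.9, 26.9, 31.5 and 31.2 CPM in TO_2d_0h, TO_2d_4h, TO_4d_4h and TO_4d_24h, and at 159, 85.1, 158 and 49.8 CPM in TOE_2d_4h, TOE_2d_24h, TOE_4d_4h and TOE_4d_24h. The 2 TOE libraries at 4 h were the highest of the 8, and only TOE_4d_24h lay inside the TO range. The 4 h ratios were 5.89 (5.43 to 6.39) on day 2 and 5.01 (4.60 to 5.46) on day 4, and the 4d 24h ratio was 1.60 (1.41 to 1.80).

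Both monocyte-like clusters showed it. In the cluster led by Cd14 and Ccl2 the 4 h ratios were 5.81 (5.31 to 6.38) and 4.98 (4.48 to 5.54), and in the cluster led by Mnda and Ccr2, in which the heat-shock genes Hspa1b and Bag3 were also among the leading genes, they were 5.82 (4.79 to 7.14) and 5.12 (4.43 to 5.95). At 4d 24h the first of these had 31 TOE cells and a ratio of 0.700 (0.333 to 1.30), and the second 1.58 (1.25 to 2.03). With every cell thinned to 1000 UMIs, 13% of TOE_2d_4h and 10.7% of TOE_4d_4h monocyte-like cells had a Timp1 UMI, against 1.97% and 2.27% in the matched TO libraries (unthinned 56.3% and 57.1% against 22.0% and 25.3%, median depth 12303.5 to 14170.5 UMIs, with 19 to 29 cells per library left out of the thinned share). Thinned B-cell-like cells had Timp1 in 0.427% and 0.843% of TOE cells and 0.0993% and 0.184% of TO cells (median depth 4195.5 to 4724.5 UMIs). Their summed level moved the same way, from 0.857 to 3.08 CPM at 2d 4h (ratio 3.59, 2.52 to 5.23) and from 2.13 to 7.85 CPM at 4d 4h (3.69, 2.93 to 4.69). The part of free RNA in the monocyte-like ratio was not tested.

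Mmp14 was also higher in TOE in these cells at 4 h. It was at 5.53 and 13.5 CPM at 2d 4h (ratio 2.45, 2.01 to 3.00) and at 3.86 and 11.1 CPM at 4d 4h (2.87, 2.23 to 3.73), but at 2.77 and 1.44 CPM at 4d 24h (0.518, 0.270 to 0.937). Within clusters the 4d 24h pair had few Mmp14 UMIs. The ratio was 2.06 (0.412 to 6.40, from 49 and 3 UMIs) in the Cd14 cluster, which held 992 TO and 31 TOE cells, and Mmp14 was at 0.403 and 1.20 CPM, from 1 and 12 UMIs, in the Mnda cluster. Of the members with at least 20 UMIs, 2 of 5 were at least 2-fold higher at 2d 4h (Timp1 and Mmp14) beside 5.97% of all genes. At 4d 4h, where Mmp2 also had enough UMIs to be compared, the same 2 were higher, beside 3.80%. At 4d 24h 1 of 5 was higher (Mmp9), beside 14.6%. Mmp13 (9 against 59 UMIs) and Timp3 (6 against 30 UMIs, 2.33, 0.956 to 6.86) at 4d 4h were left out of this count, since they reached 20 UMIs only through the TOE library. Such genes were kept in the shares of all genes. In the other direction 0 members passed, beside 3.27%, 2.74% and 7.32% of genes. The class ratio of Mmp14 at 4d 24h was 0.419 to 0.504 over 10 alternatives, past 2-fold lower in 7, and none of these compared cells within clusters. The Mmp13 and Timp3 values at 4d 4h were 1.48 and 0.751 CPM in TOE, close to the 0.837 and 1.16 CPM of B-cell-like cells. Monocyte-like Mmp9 at 4d 24h, at 3.44 CPM in TO and 8.23 CPM in TOE, lay below the B-cell-like 3.69 and 9.63 CPM in both libraries.

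Over the members tested, the median log2 ratio in monocyte-like cells was 0.24, 0.80 and 0.27 at the 3 pairs. Over all genes it was 0.12, -0.03 and 0.17. The 4d 4h value of 0.80 took in Mmp13 and Timp3, which reached 20 UMIs only through the TOE library. That value is therefore not read as a result, and the median without these genes was not taken.

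**Figure D5:**
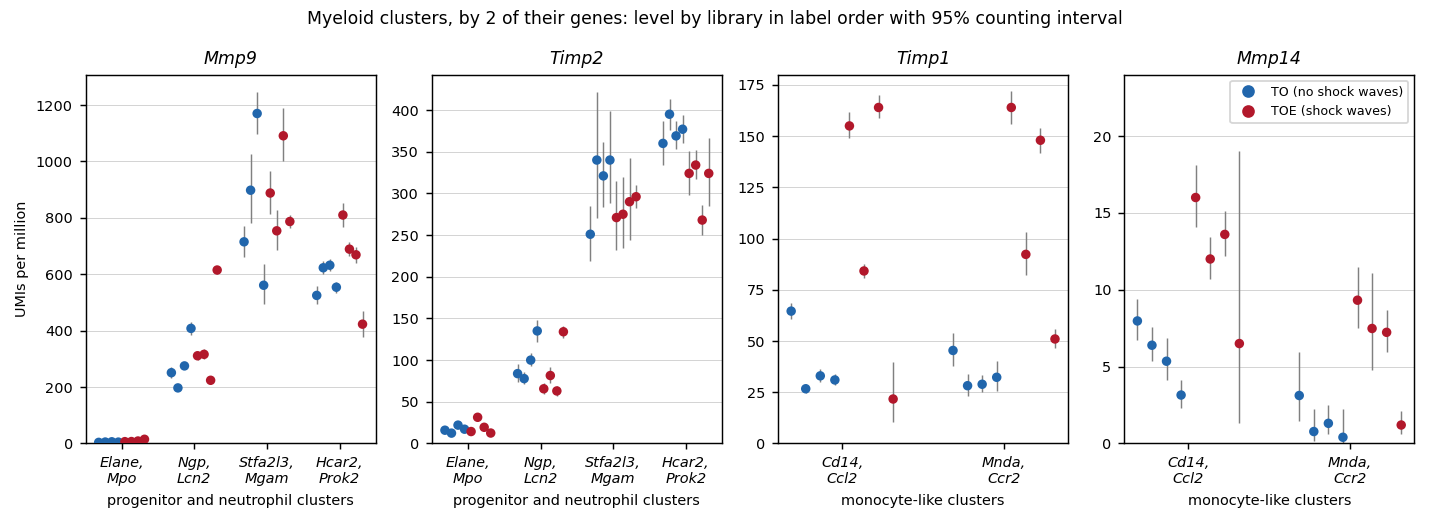
Level (CPM, linear axes from 0) of Mmp9 and Timp2 in progenitor and neutrophil clusters and of Timp1 and Mmp14 in the 2 monocyte-like clusters, named by 2 of their genes, by library in label order, with bars for the 95% counting interval. Timp1 stood at 148 to 164 in the TOE libraries at 4 h in both monocyte-like clusters, and Mmp9 was under 15 in progenitors.

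Mmp9 and Timp2 differed by neutrophil cluster. In granulocyte-monocyte progenitor-like cells Mmp9 was at 3.86 to 14.8 CPM over libraries, and it was at 197 to 615 CPM in the cluster led by Ngp and Lcn2, genes of secondary granules, at 561 to 1170 CPM in the cluster led by Stfa2l3 and Mgam, and at 423 to 810 CPM in the cluster led by Hcar2 and Prok2. Timp2 ran alike at 12.4 to 31.4, 63.0 to 135, 251 to 340 and 268 to 395 CPM. Progenitors lay below all 3 neutrophil clusters for both genes, and the Ngp cluster below the other 2 for Timp2, while the 3 Mmp9 ranges overlapped. Within each library, Mmp9 in the Ngp cluster was below the Stfa2l3 cluster. It was also below the Hcar2 cluster in each library except TOE_4d_24h (615 against 423 CPM).

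Between TO and TOE, Mmp9 in all neutrophil-like cells stayed within 2-fold, with ratios of 1.18 (1.13 to 1.23), 0.851 (0.819 to 0.885) and 1.33 (1.28 to 1.37). Timp2 was lower in TOE in each pair, at 218 against 138 CPM at 2d 4h, 211 against 132 CPM at 4d 4h and 292 against 202 CPM at 4d 24h, ratios of 0.633 (0.589 to 0.679), 0.626 (0.587 to 0.667) and 0.692 (0.657 to 0.728). None reached 2-fold. Within the 3 clusters the 9 Timp2 ratios were 0.628 to 0.993, 4 of them with intervals that included 1, and the clusters took different shares of the cells, with 1419 TOE_4d_24h cells against 127 TO_4d_24h cells in the Stfa2l3 cluster.

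A second source of Mmp9 lay in the macrophage-like class. A sub-cluster of 146 cells led by Ctsk, Mmp9, Atp6v0d2 and Acp5, osteoclast genes, with 5 of 7 osteoclast markers raised, held 89.0% of the class's Mmp9 UMIs at 797 CPM and had 273 CPM of Mmp14. In the libraries with at least 10 of these cells Mmp9 was at 420 to 1110 CPM. The Mmp9 ratio of the whole class was 0.0832 (0.0330 to 0.175) at 2d 4h, where 15 TO and 5 TOE cells were osteoclast-like. It was 1.80 (1.49 to 2.18) for the 4d 4h pair, with 12 and 22 such cells, and 0.0941 (0.0449 to 0.174) for the 4d 24h pair, with 14 and 1. Within the osteoclast-like sub-cluster at 4d 4h the ratio was 1.40 (1.12 to 1.76).

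In the macrophage-like class Timp1 was at 120, 42.0, 51.2 and 22.1 CPM in the TO libraries in label order and at 148, 99.1, 95.9 and 58.0 CPM in the TOE libraries. The unpaired TO_2d_0h lay above every TOE library but TOE_2d_4h. In the matched pairs it was higher in TOE, at 42.0 against 148 CPM at 2d 4h (3.54, 2.83 to 4.44), 51.2 against 95.9 CPM at 4d 4h (1.87, 1.62 to 2.18) and 22.1 against 58.0 CPM at 4d 24h (2.63, 1.45 to 4.62, from 25 TOE cells). Its sub-clusters did not all do so. At 2d 4h the ratio was 6.16 (4.45 to 8.67) in the cells led by F13a1 and Arg1. It was 3.74 (1.22 to 15.3, from 4 and 17 UMIs) in those led by Hpgds and Vcam1. In dividing cells led by Ube2c it was 3.77 (1.53 to 9.61, from 10 and 13 UMIs). The cells led by Ptcd3 and Selenop were at 0.577 (0.203 to 1.34), from 52 and 6 UMIs. At 4d 4h the F13a1 cells were at 2.35 (1.77 to 3.16) and the Ptcd3 cells at 1.59 (1.26 to 2.01). The Ube2c cells were at 0.728 (0.446 to 1.19). The Hpgds cells were at 10.4 (2.58 to 91.2), from 2 and 23 UMIs. Cells led by Pax5 and Ebf1 were at 1.78 (0.880 to 3.76), from 13 and 26 UMIs. The Hpgds and Pax5 ratios at 4d 4h had enough UMIs only through TOE, and the Ptcd3 ratio at 2d 4h only through TO. They are not read as results. Mmp19 was at 7.54 against 28.4 CPM (3.77, 2.21 to 6.59) and 7.16 against 15.2 CPM (2.13, 1.43 to 3.23) at the 4 h pairs, and at 17.5 against 26.1 CPM at 4d 24h (1.49, 0.623 to 3.20, from 31 and 9 UMIs), which was 0.917 (0.277 to 2.40) without the cell with most UMIs in each library. At 2d 4h most TOE Mmp19 UMIs lay in the sub-cluster led by Hpgds and Vcam1, with 34 in 37 TOE cells against 3 in 33 TO cells. The part of this sub-cluster in the class ratio was not tested.

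Endothelial-like cells numbered 27 to 65 per library in the 4 h pairs. Timp1 was at 54.8 against 536 CPM at 2d 4h (9.79, 6.82 to 14.5, from 34 and 247 UMIs), where 1 TOE cell held 133 of the 247, and without the cell with most UMIs in each library the ratio was 5.85 (3.82 to 9.26). It was at 103 against 199 CPM at 4d 4h (1.93, 1.55 to 2.41). Timp3 was at 501 against 432 CPM (0.863, 0.718 to 1.03) and 300 against 588 CPM (1.96, 1.72 to 2.23). The 4d 24h pair was not compared because TOE_4d_24h had 16 such cells. The Timp1 ratio was thus above 1 at both 4 h pairs in the monocyte-like, macrophage-like and endothelial-like classes, and in the mesenchymal-like class except with the low-UMI collagen cluster counted in at 2d 4h (0.954). It was also above 1 in dendritic-cell-like cells (2.41, 1.81 to 3.26, and 2.40, 1.91 to 3.04). In granulocyte-monocyte progenitor-like cells (3.37, 2.15 to 5.47, and 4.03, 2.52 to 6.71) and neutrophil-like cells (3.43, 1.93 to 6.39, and 2.65, 1.88 to 3.79) its levels were 2.73 to 11.4 and 1.60 to 9.78 CPM, beside 0.857 to 7.85 CPM in the B-cell-like cells of these libraries, whose ratios were also above 1. Progenitor-like and neutrophil-like Timp1 each lay above the B-cell-like level in all 4 of them. In erythroid-like cells the 2d 4h ratio was 0.529 (0.367 to 0.751), and 3.59 (2.23 to 6.02) was found at 4d 4h. A cluster of this class with a median of 1869 UMIs and 27.5 CPM of Timp1 held 1990 of 2683 TO_2d_4h cells and 73 of 651 TOE_2d_4h cells.

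A common difference over the 3 pairs was tested with edgeR's quasi-likelihood test on the summed UMIs of 6 libraries, with the time point as a block and 2 residual degrees of freedom, in the mesenchymal-like, monocyte-like, macrophage-like and neutrophil-like classes. Of 26 tests of members, 0 had an adjusted p under 0.05 by edgeR and 4 an unadjusted p under 0.05, beside 0% of all genes with an adjusted p under it in 3 classes and 0.00926% in the macrophage-like class. Of all genes, 9.10% in monocyte-like, 3.74% in macrophage-like, 8.05% in neutrophil-like and 3.10% in mesenchymal-like cells had an unadjusted p under 0.05 by edgeR. The 4 were Timp1 in 2 classes, Mmp19 and Timp2. In monocyte-like cells Timp1 had a mean of 29.9 CPM in TO and 122 CPM in TOE, higher in 3 of 3 pairs, with a log2 difference of 1.79 (edgeR, adjusted p = 0.537). DESeq2, which called 1 of the 20 for which it gave an adjusted p (6 had none), gave this gene an adjusted p of 0.00222, and called 1.15% of the genes with an adjusted p in that class, 0.0983% in macrophage-like, 1.92% in neutrophil-like and 0.0473% in mesenchymal-like cells. In macrophage-like cells Timp1 had a log2 difference of 1.34 (edgeR, adjusted p = 0.618) and Mmp19 of 1.22 (edgeR, adjusted p = 1), each higher in 3 of 3 pairs, although Mmp19 at 4d 24h was below 1 without the top cell of each library. Timp2 in neutrophil-like cells had a log2 difference of -0.68 (edgeR, adjusted p = 0.572), lower in 3 of 3 pairs.

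In the mesenchymal-like class 0 of 8 members passed even before adjustment by edgeR, beside 3.10% of all genes, and DESeq2 called 0. Without the 4d 24h pair, which leaves 1 residual degree of freedom, edgeR called Timp1 (adjusted p = 0.000408) and Mmp14 (adjusted p = 0.0221) in monocyte-like cells and Timp1 in macrophage-like cells (adjusted p = 0.0432), beside 2.13% and 0.169% of all genes in these classes. The pair left out was the one in which monocyte-like Mmp14 was lower in TOE (0.518). With all 3 pairs Mmp14 had an adjusted p of 0.632 there by edgeR, so its call is not read as a result. Without the 4d 4h pair edgeR called Mmp9 in macrophage-like cells, lower in TOE (adjusted p = 0.0211), beside 0.0199% of all genes. That fit left out the pair in which Mmp9 was higher in TOE. Its libraries had 15 TO against 5 TOE osteoclast-like cells at 2d 4h and 14 against 1 at 4d 24h, and the part of this makeup was not tested. Such a test asks for 1 shared difference, so it is poorly suited to a gene that differs in direction between pairs.

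Other proteases and inhibitors of the pathway were counted in the mesenchymal-like class by the same rule, beside the same shares of all genes at 2d 4h, 4d 4h and 4d 24h (5.76%, 6.09% and 4.03% lower, 4.10%, 4.93% and 14.3% higher). Of 18 other metalloproteinase genes, 17 were in the files and 3, 7 and 3 had at least 20 UMIs at 2d 4h, 4d 4h and 4d 24h. Mmp8 was at a ratio of 0.283 (0.0950 to 0.707, from 25 and 6 UMIs) at 2d 4h and higher at 4d 24h (2.30, 1.74 to 3.05). Of its UMIs 93.0% lay in neutrophil-like cells, the mesenchymal-like class held the sub-cluster with granulocyte genes, and their part in these ratios was not tested. At 4d 4h Mmp15 had 20 and 4 UMIs and Mmp11 had 30 and 9, at 4.92 and 1.80 CPM. Of Mmp11 UMIs 85.7% lay in B-cell-like cells, at 5.36 CPM, and the part of free RNA in the Mmp11 values was not tested. These genes and Mmp8 at 2d 4h reached 20 UMIs only through the library in which they were higher. Mmp16, a membrane-type enzyme, was at ratios of 0.893, 1.99 and 1.34, and Mmp23 at 0.970 (0.688 to 1.36), 1.39 (1.20 to 1.62) and 1.13 (0.932 to 1.36).

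Among 14 other inhibitors and partners, 11, 13 and 12 could be compared, with 0, 1 and 2 lower. The lower ones were Plau, the urokinase that starts plasmin formation, at 4d 4h (0.479, 0.434 to 0.530) and 4d 24h (0.219, 0.126 to 0.360), and its receptor Plaur at 4d 24h (0.360, 0.272 to 0.471). Plau at 4d 24h had 133 and 18 UMIs and reached 20 only through TO. A2m, a broad protease trap, had 1 UMI in TO and 32 in TOE at 4d 24h, and reached 20 UMIs only through TOE. Lcn2 (1.95 and 1.87), Lrp1 (1.81 and 0.738) and Plat (1.76 and 0.604) stayed within 2-fold at the 4 h pairs.

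Of 14 ADAM and ADAMTS genes, 12, 13 and 13 could be compared. At 2d 4h 1 was lower, Adam9 (0.460, 0.309 to 0.672), followed by Adamts4 (0.541) and Adamts9 (0.578), which stayed within 2-fold. At 4d 4h 5 of 13 were lower, beside 6.09% of all genes, led by Adamts1, an aggrecan- and versican-cutting protease (0.312, 0.243 to 0.398), Adam19 (0.437) and Adamts9 (0.467). At 4d 24h Adam19 was higher (2.19, 1.64 to 2.93), with Adam12 at 1.86, while Adam15 had 9 and 21 UMIs and reached 20 only through TOE.

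The genes whose level ran most like each member were taken over 97 class by library sums and 16374 genes, as Pearson correlations of log2(CPM + 1) that are descriptions, since the sums share libraries and cell classes. Mmp2 was nearest to Col5a2 (0.963), Cdh11 and Gja1 (both 0.961), Mmp14 to Htra1 (0.940), Bend6 (0.902) and C11h3orf70 (0.901), and Mmp13 to Scx (0.906), Prss35 (0.903) and Ptgfr (0.896). Mmp3 was nearest to Slc38a4 (0.771), Sertad4 and Cilp (both 0.767), Mmp19 to Papss2 (0.804), Fam114a1 (0.792) and Plod3 (0.783), and Mmp9 to Mmp8 (0.838), LOC120102202 (0.801) and Mapk13 (0.794). Timp1 was nearest to Rnd3 (0.891), Fam114a1 (0.858) and Mmp14 (0.851), Timp2 to Scpep1 (0.819) and Gsn (0.815), and Timp3 to Yap1 (0.921), Mylk (0.917) and Septin4 (0.907).

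Enzymes and inhibitors were found in the same mesenchymal-like cells. Of the 337 cells with an Mmp13 UMI, 94.1% also had Mmp14, 98.2% Timp1, 98.5% Timp2 and 57.0% Timp3, against 90.3%, 95.9%, 96.0% and 44.6% of the cells without Mmp13. The cells with Mmp13 were deeper, with a median of 35610 UMIs against 30291, and the part of depth in these differences was not tested.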

How the data were processed

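Single-cell 3′ RNA libraries of osteotomy tissue from 8 conditions were analysed, 1 library each. Per the submitters' notes, reads were processed with Cell Ranger 9.0.0, with Seurat and R 4.0.3 also named; the builds listed are mRatBN7.2 and GRCh38, whose roles are not given in the sources used here. The deposited values are UMI counts per gene and barcode, not normalized, 95954800 to 144146202 per library, with at least 500 UMIs in every barcode.

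Barcodes under 200 genes or over 20% mitochondrial UMIs were left out, and cells with a doublet score over 0.25 (2.27% to 4.24% per library) were removed. Cells were clustered with scanpy 1.11.5 (2000 variable genes without MMP and TIMP genes, 30 principal components, Leiden resolution 1, igraph 0.11.9, Python 3.11.15). Clusters were called X-like where at least 3 markers and 40% of a list were raised, and left unnamed where median UMIs were under those of their own libraries divided by 3. UMIs were summed per class and library, with at least 20 cells (10 in sub-clusters). Exact Poisson, Clopper-Pearson and conditional ratio 95% intervals (scipy 1.17.1) cover counting error only, and past 2-fold with at least 20 UMIs over the pair was counted as a change. TO and TOE were tested over the 6 paired libraries with edgeR 4.0.16 (filterByExpr, TMM, time point as a block, Benjamini-Hochberg adjustment over all genes tested) and DESeq2 1.42.0 in R 4.3.3, which was added after seeing the data. Scripts were tested on simulated data.

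The members and lists were chosen with earlier results of these data known. The 40% rule, the low-UMI rule, the doublet score, the macrophage sub-clusters and the alternatives without single sub-clusters or in other classes were chosen after seeing the data. Named were the 9 members, the 3 genes per list and pair with the largest ratio, the 3 genes most like each member (1 of them is not reported here), and cluster markers. Other genes, such as the neighbours of Mmp13, were chosen after their values were seen. Promoters of 5 members were matched in RefSeq tables (GRCr8).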

Additional observations from a re-analysis of the deposited data

Results flagged for a closer look

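The TOE over TO ratio in mesenchymal-like cells lay on opposite sides of 1 between pairs, with intervals that excluded 1 on both sides, for 4 genes, and the difference between pairs was not tested, with 1 library per condition. In the order 2d 4h, 4d 4h, 4d 24h, Mmp13 was at 0.0307, 1.72 and 2.62. Both sub-clusters compared at 4d 24h were lower (0.315, and 0 against 115 UMIs), but from few cells. All 133 TOE UMIs of the Cxcl12 sub-cluster lay in 1 cell, and the 115 TO UMIs of the Bglap sub-cluster in 10 of 82 cells. Mmp14 was at 0.543, 0.863 and 3.10, and Timp2 at 0.788, 1.16 and 1.23. Timp3 ran the other way, at 1.74, 2.78 and 0.519. Without the Col2a1 sub-cluster, of which TO_4d_24h had 0 cells, the 4d 24h ratios were 1.22 for Mmp13, 1.29 for Mmp14 and 0.763 for Timp2, which then lay on the other side of 1.

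UMIs of the members also lay in cells kept out of the mesenchymal-like class and counted there in 1 alternative only. A cluster of 3971 cells led by Mgp, Tpm2 and Bglap stayed unnamed for its median of 794 UMIs. It had 45.2 CPM of Mmp2, 23.7 CPM of Mmp9, 44.5 CPM of Mmp13, 40.5 CPM of Mmp14 and 8.68 CPM of Mmp19, against 0.903, 3.95, 0.737, 1.36 and 0.342 CPM in B-cell-like cells. Its inhibitor levels were 493 CPM for Timp1, 201 CPM for Timp2 and 14.1 CPM for Timp3, against 8.90, 8.09 and 0.921 CPM. The B-cell-like cells were deeper, at a median of 4355 UMIs, and the part of free RNA in so shallow a cluster was not tested.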

How the results depend on the processing

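Over the 3 pairs together, edgeR with the time point as a block called 0 members in each of 4 classes and 0 without the block. DESeq2 called 1 in monocyte-like cells and gave 6 of 26 no adjusted p, and leaving out each pair gave 0 to 2 there, 0 to 1 in macrophage-like cells and 0 in the mesenchymal-like and neutrophil-like classes. With 60 to 498 mesenchymal-like cells per library, counting error is only part of the uncertainty. The class with the highest level of each member stayed the same in 72 of 72 recomputations, and 314 of 360 mesenchymal-like ratios stayed within their own interval. The 2d 4h count of 1 member past 2-fold became 2 under a stricter cell filter (500 genes, 10% mitochondrial UMIs), with each cell weighted equally or with at least 1 UMI over the pair, and 3 with the low-UMI collagen cluster counted in or a fold of 1.5. The 4d 4h count of 1 became 2 without the Cxcl12 and Lepr sub-cluster and 3 at a fold of 1.5. Over 15 settings Mmp13 ranged from 0.0155 to 0.0424 at 2d 4h and Timp3 from 2.62 to 5.19 at 4d 4h, all past 2-fold. Mmp9 ranged from 2.66 to 6.67 at 4d 24h, but had 15 and 38 UMIs and enough to be counted only through TOE. B-cell-like Mmp9 had a ratio of 2.61 in that pair. The Mmp9 range is therefore not read as a result. At 4d 24h Mmp13 ranged from 1.22 to 6.28 and Mmp14 from 1.29 to 3.48, lowest without the Col2a1 and Comp sub-cluster. Leaving it out gave 2 members past 2-fold in place of 3, with Mmp9, under the same limit, in both counts. Monocyte-like Timp1 ranged from 5.50 to 6.46 at 2d 4h and from 4.93 to 5.32 at 4d 4h over 10 settings. Endothelial-like Timp1 at 2d 4h ranged from 5.85 to 9.79. The cause of these shifts was not tested.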
